A study of Homo sapiens with 6 samples.

Results

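H3K4me3 peaks at shared promoters are the called regions whose centre lay at most 1 kb from the start sites of 2 or more different genes. They were chosen by distance alone: every distinct peak of the parental and the knockout H3K4me3 list with 2 or more gene symbols at that distance was a member. The parental list held 3542 such peaks, 10.6% of its 33470 peaks, and the knockout list held 3020, 12.1% of its 24943. They are called multi-gene peaks here and were compared with the 16103 parental and 12526 knockout single-gene peaks, which had exactly 1 symbol within 1 kb. Most multi-gene peaks had exactly 2 symbols, 3398 in the parental list and 2890 in the knockout list, and no peak had more than 6.

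All libraries came from HL-60, an established human promyelocytic leukaemia cell line labelled as myeloblast. Parental HL-60 was set against a knockout (KO) of JMJD3, the H3K27 demethylase encoded by KDM6B, by chromatin immunoprecipitation and sequencing of 1 library for each genotype and mark. The sources used here do not say how the knockout was made or whether it is 1 clone. The series has 2 further histone libraries titled H3K27me3, whose antibody label names H3K4me3, and 2 inputs that were not analysed here. With 1 library per genotype, no difference has a replicate check and no p-value is given. Intervals are 95% intervals for counting error, and peaks next to each other share a promoter and are not independent. The lists hold no read counts, so the depth is unknown, and its part in the difference in length and width between the lists was not tested. Width is the extent of a called region, not the amount of the mark, and a marked promoter does not show that a gene is expressed.

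Of 10 granulocyte lineage genes, 6 had a parental H3K4me3 peak within 1 kb of a start (MPO, SPI1, CEBPA, CEBPE, CD33 and MYB, with summed widths of 1119 to 2330 bp), and ELANE, PRTN3, AZU1 and LYZ had none. Of 8 lymphoid genes, a list added after the values were seen, CD4 and CD79A had parental peaks, with summed widths of 340 to 368 bp. In the knockout list the same granulocyte genes except MPO had peaks, with summed widths of 177 to 650 bp. KDM6B had 1 parental peak of 428 bp within 1 kb of a start and no knockout peak there, which shows the mark at that promoter and does not check the knockout.

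Many human genes lie head to head and are transcribed away from each other from one short stretch of DNA, a bidirectional promoter. Such promoters are known to be rich in CpG, poor in TATA boxes and frequent among genes for DNA repair, the cell cycle and mitochondria. H3K4me3 is placed on the nucleosomes beside active or poised start sites, while the start itself is usually depleted of nucleosomes. A gene with its own promoter usually carries the stronger mark on the transcribed side.

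The DNA between both starts, as RefSeq's GRCh38.p14 promoter table places them, is shown for 8 of these loci. They were chosen after their values were seen, because their parental and knockout peaks are described below. Each line gives the gene on the minus strand, then the gene on the plus strand, and the sequence reads 5′ to 3′ on the plus strand, from RefSeq's GRCh38.p14 promoter table. Capitals mark a match on either strand to 1 of 4 motifs, whose matches do not overlap in the stretches shown: the GC box, searched as GGGCGG, the box named CCAAT by its letters, the TATA box, searched here as TATAAA, and the ETS core, searched as CCGGAAG.
PPAT/PAICS: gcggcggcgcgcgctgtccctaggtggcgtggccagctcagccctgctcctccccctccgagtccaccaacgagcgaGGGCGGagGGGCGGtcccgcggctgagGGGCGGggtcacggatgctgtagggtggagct
SIRT3/PSMD13: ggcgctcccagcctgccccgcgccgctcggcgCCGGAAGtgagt
NTHL1/TSC2: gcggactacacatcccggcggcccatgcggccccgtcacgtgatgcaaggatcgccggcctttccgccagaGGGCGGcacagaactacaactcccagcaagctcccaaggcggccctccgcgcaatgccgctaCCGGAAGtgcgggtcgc
PROSER1/NHLRC3: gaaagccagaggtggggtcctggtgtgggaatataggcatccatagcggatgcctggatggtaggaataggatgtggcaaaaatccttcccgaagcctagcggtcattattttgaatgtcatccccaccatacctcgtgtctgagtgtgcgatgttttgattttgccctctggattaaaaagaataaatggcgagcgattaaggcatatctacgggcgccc
SMG5/TMEM79: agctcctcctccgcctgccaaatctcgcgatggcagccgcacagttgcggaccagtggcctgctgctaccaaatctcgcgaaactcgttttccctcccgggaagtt
PI4KA/SNAP29: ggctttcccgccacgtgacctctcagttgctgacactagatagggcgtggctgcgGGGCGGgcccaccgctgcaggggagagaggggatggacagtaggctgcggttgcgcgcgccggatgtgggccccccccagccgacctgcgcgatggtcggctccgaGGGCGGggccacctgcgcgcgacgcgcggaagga
PRKAR2A/PRKAR2A-AS1: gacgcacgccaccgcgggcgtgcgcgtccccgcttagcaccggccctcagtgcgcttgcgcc
HIST1H2AM/HIST1H2BO: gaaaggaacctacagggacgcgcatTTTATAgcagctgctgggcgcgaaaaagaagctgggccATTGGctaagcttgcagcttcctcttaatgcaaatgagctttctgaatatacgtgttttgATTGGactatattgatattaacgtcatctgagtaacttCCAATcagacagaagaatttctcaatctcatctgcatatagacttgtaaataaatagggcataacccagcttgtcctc
In GRCh38.p14 these stretches lie at chr4:56435616-56435751, chr11:236932-236975, chr16:2047835-2047984, chr13:39038090-39038310, chr1:156282826-156282931, chr22:20858812-20859006, chr3:48847875-48847936 and chr6:27893186-27893424, in this order. By that table's starts they lie upstream of both genes. They are 44 to 239 bases long. The hg19 starts used to place the peaks can differ from these. At SIRT3/PSMD13 the hg19 starts lay 445 bp apart, against 44 bases shown. The hg19 gap was 99 bp against 62 bases at PRKAR2A/PRKAR2A-AS1, and 112 bp against 136 bases at PPAT/PAICS. All peak coordinates below are hg19 positions and are not mixed with these.

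Sequence content was compared over whole 300-base promoters of the same table, with each motif on both strands. The plus-strand genes of 703 divergent pairs had a median GC content of 65.7% and 28 CG dinucleotides per promoter, against 66% and 28 in 4480 genes with 1 marked promoter of their own and 58.7% and 14 in all 35116 promoters. The TATA box was in 3.27% (2.19 to 4.86) of the divergent promoters, in 4.98% (4.38 to 5.65) of the single-gene promoters and in 11.5% of all. The ETS core was in 29.0% (25.8 to 32.5), 21.9% (20.7 to 23.1) and 10.3%, and the CCAAT box in 43.5% (39.9 to 47.2), 37.8% (36.4 to 39.2) and 34.6%. The ETS core and the CCAAT box were thus in a larger share of divergent than of single-gene promoters, with intervals that do not overlap. Each window ran from 250 bases before the start to 50 after it. At divergent pairs it can also hold the start of the partner gene, and the part of this in the difference was not tested. GC boxes were in 74.4% (71.0 to 77.5) and 74.2% (72.9 to 75.5), against 45.0% of all promoters. A match is a description of letters and not evidence of binding.

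Multi-gene peaks were wider than single-gene peaks in both lists, and more of them were overlapped by a peak of the other genotype. In parental cells their median width was 508 bp (quartiles 272 and 839.75) against 427 bp (243 and 769), a difference of 81 bp (60.4 to 101). In knockout cells it was 283 bp (195 and 436.25) against 271 bp (188 and 418), a difference of 12 bp (3.94 to 20.9). The widest multi-gene peak spanned 3487 bp in the parental and 1978 bp in the knockout list. Both kinds of peak were narrower in the knockout list, and the width advantage of multi-gene peaks was smaller there.

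Of the 3542 parental multi-gene peaks, 2328 or 65.7% (64.1 to 67.3) overlapped a knockout peak by at least 1 bp, where 52.6% of all parental peaks and 60.9% of those with any symbol within 1 kb did. Single-gene peaks did so in 59.9% (59.1 to 60.6), a difference of 5.87 percentage points (4.12 to 7.60). Of the 3020 knockout multi-gene peaks, 2906 or 96.2% (95.5 to 96.8) overlapped a parental peak, where 88.7% of all knockout peaks and 93.8% of those with a symbol within 1 kb did. Single-gene peaks reached 93.2% (92.8 to 93.7), a difference of 2.98 points (2.12 to 3.75). Thus 1214 parental and 114 knockout multi-gene peaks had no counterpart in the other list. These shares rest on the 1 bp overlap: with 50% of the peak covered they were 29.4% (single-gene 26.4%) for parental and 90% (84.8%) for knockout multi-gene peaks, and with 50% reciprocal overlap 26.96% (23.1%) and 31.2% (29.9%).

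Wider peaks were overlapped more often in every class, and the parental difference varied with width. Among parental peaks of at most 200 bp, 22.4% of multi-gene and 24.2% of single-gene peaks were overlapped, a difference of -1.86 points (-5.64 to 2.26). From 200 to 300 bp the difference was -1.34 points (-5.78 to 3.31). It was 4.76 points (0.34 to 9.11) from 300 to 450 bp, 6.29 (2.74 to 9.62) from 450 to 700 bp and 1.76 (0.13 to 3.19) above 700 bp, where 94.2% of multi-gene peaks were overlapped. With single-gene peaks reweighted to the width classes of multi-gene peaks, the parental difference was 2.25 points. In the knockout list the difference lay in the narrow peaks: 91.3% against 86.4% at most 200 bp wide, 96.9% against 92.4% from 200 to 300 bp, and differences of 0.13, 0.38 and 0.12 points in the 3 wider classes.

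**Figure D1:**
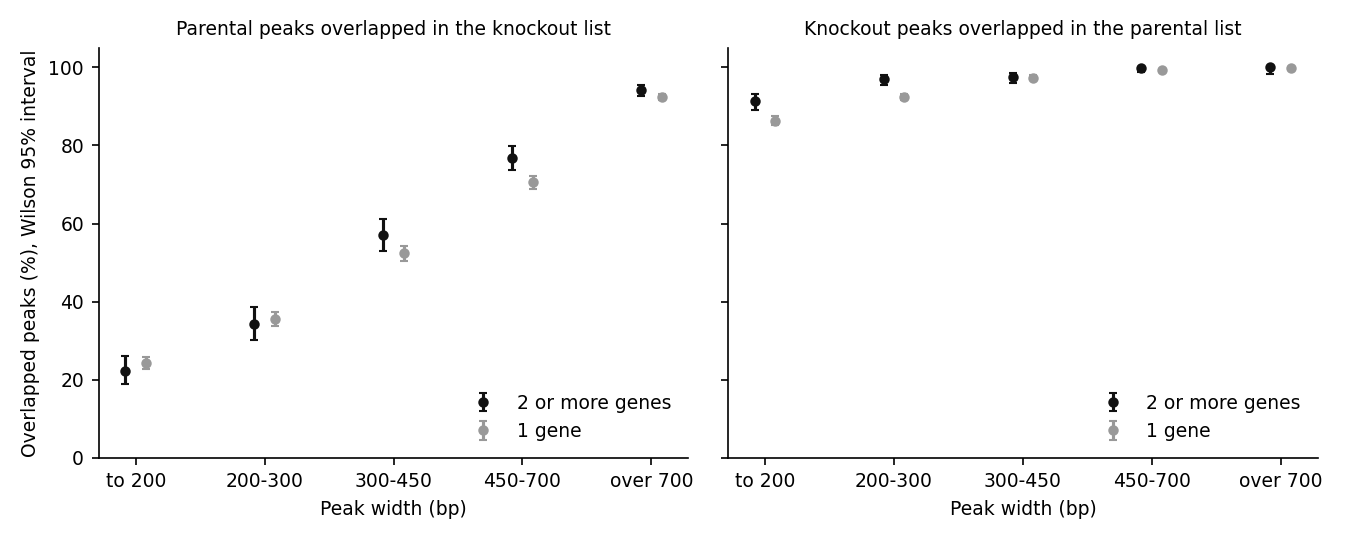
Share of H3K4me3 peaks overlapped in the other genotype's list (y axis, percent) by called width (x axis, bp), for peaks with 2 or more genes (black) and 1 gene (grey) within 1 kb; bars are Wilson 95% intervals. Parental shares climb from 22.4% to 94.2% for multi-gene peaks, which lie above single-gene peaks only in the 3 widest classes.

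The distance to the nearest start gave a different picture. The nearest start lay at a median of 392 bp from the centre of a parental multi-gene peak and 466 bp from that of a single-gene peak, and at 403 and 501 bp in the knockout list. At equal distance parental multi-gene peaks were wider in every class: within 200 bp of a start the medians were 293 and 249.5 bp, and from 600 to 800 bp they were 853 and 638 bp. The parental overlap difference was 6.25 points (2.17 to 10.3) within 200 bp, 9.42 (6.08 to 12.7) from 200 to 400 bp, 9.53 (6.36 to 12.5) from 400 to 600 bp, 8.80 (4.96 to 12.3) from 600 to 800 bp and 5.10 (-1.63 to 11.03) from 800 to 1000 bp.

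Values on either side of the 1 kb limit are given as a description. The 367 parental peaks whose second symbol lay 900 to 1000 bp away had a median width of 642 bp and an overlap of 71.7%, and the 311 peaks whose second symbol lay 1000 to 1100 bp away, just outside, had 552 bp and 70.4%. For the knockout list these were 291.5 bp and 95.8% for 356 peaks inside and 285.5 bp and 94.1% for 324 outside. With a limit of 500 bp, which keeps 1287 parental and 1051 knockout peaks, the parental differences turned to -13 bp and -0.20 points and the knockout width difference to -14 bp.

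The orientation of genes was read from the RefSeq GRCh38.p14 table. It matched 77.0% of the 4035 symbols at multi-gene loci, too few for a statement on all shared promoters, so the values that follow hold for peaks whose 2 symbols both matched. These were 2432 of the 3398 parental and 2092 of the 2890 knockout peaks. Among them, 1686 parental peaks (69.3%) lay at divergent pairs, genes read away from each other, with a median of 127 bp between starts. Another 618 (25.4%) had genes on opposite strands whose first parts overlapped, and 128 (5.26%) had genes on the same strand, 83 of them with a shared start. In the knockout list 1506 peaks (72.0%) lay at divergent pairs, 490 at overlapping genes and 96 at genes on the same strand.

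Divergent pairs had the widest parental peaks. Their median was 540.5 bp, against 471 bp at overlapping opposite-strand genes, 421 bp at same-strand genes and 491.5 bp for the 966 peaks without matched strands. Knockout overlap followed the same order, at 68.3%, 64.1% and 56.3%, with 64.6% for the unmatched. Peaks between 2 genes with a coding transcript were also wider than those with non-coding partners: 550 bp and 68.5% overlap for 1909 parental peaks with 2 coding genes, 451 bp and 63.8% for 1375 with 1, and 461 bp and 51.8% for 114 with none. The knockout medians were 288, 277 and 295 bp.

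Most peaks at divergent pairs lay beside the starts and not between them. In the parental list 778 centres lay beside the minus-strand gene, 757 beside the plus-strand gene and 151 between the starts. Both flanks were alike, with medians of 553 and 569 bp and overlaps of 69.4% and 70.1%, whereas peaks between the starts had a median of 348 bp and an overlap of 53.0%, at pairs with a median gap of 777 bp. The knockout flanks had 703 and 704 peaks with medians of 291 and 289 bp. Only 53 parental peaks covered both starts, with a median width of 1128 bp and an overlap of 90.6%, and 14 knockout peaks did.

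The 1535 parental peaks outside both starts of a divergent pair resembled the single-gene peaks on the transcribed side of their gene. Their median of 560 bp exceeded that of 7941 downstream single-gene peaks by 2 bp (-26.6 to 33.4), and their overlap of 69.8% (67.4 to 72.0) exceeded theirs by 0.85 points (-1.70 to 3.32). The same comparison over 1407 and 7095 knockout peaks gave 1 bp (-12 to 13.1) and -0.05 points (-1.26 to 0.96). Single-gene peaks upstream of their gene were of another size: 5145 parental ones had a median of 327 bp and an overlap of 47.2%, and 3112 knockout ones had 241 bp and 87.1%. Divergent flanks exceeded these by 233 bp and 22.6 points (19.9 to 25.2) in the parental list, and by 50 bp and 9.05 points (7.44 to 10.6) in the knockout list.

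**Figure D2:**
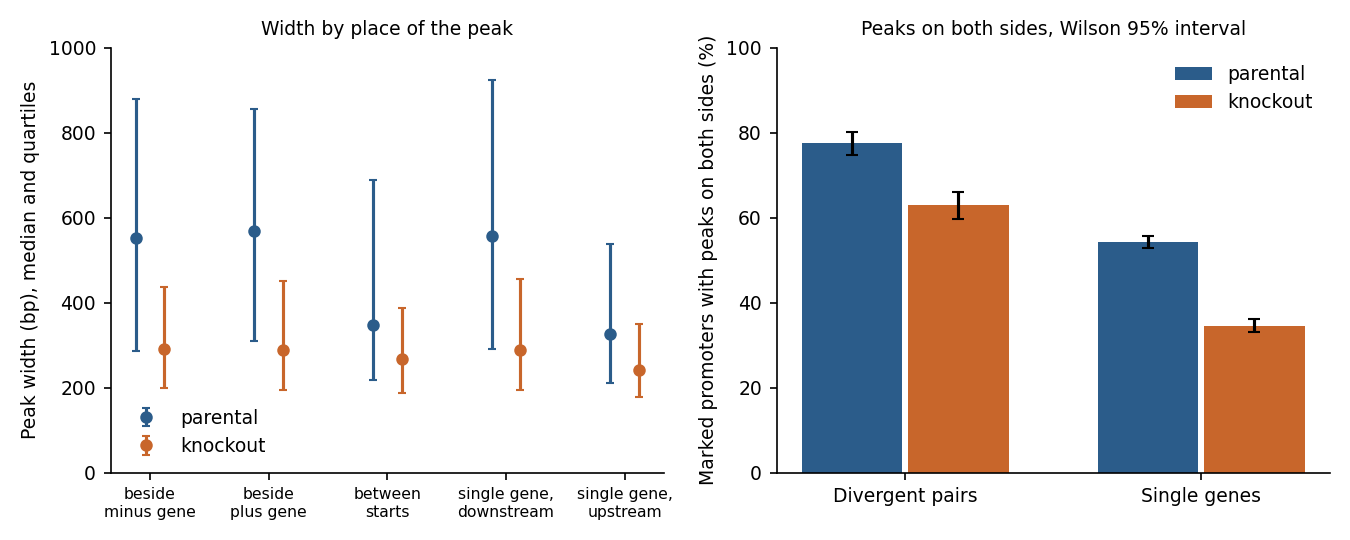
Left, peak width (y axis, bp, median with quartiles) by place of the peak at divergent pairs and single genes, for parental (blue) and knockout (orange) lists; right, share of marked promoters with peaks on both sides (y axis, percent, Wilson 95% interval). Both divergent flanks sit with the downstream single-gene peaks near 560 bp in parental cells, and 77.6% of divergent pairs against 54.3% of single genes had peaks centred within 1 kb on both sides.

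Counted by promoter, H3K4me3 lay on both sides of most divergent pairs. A side counted as marked where a peak was centred within 1 kb beyond the start. Peaks centred between the starts or farther out were not counted, even where they reached that side. Of 969 pairs, 946 had a parental peak on at least 1 side and 734 of these, 77.6% (74.8 to 80.1), had one on both. The knockout count was 555 of 881, 63.0% (59.8 to 66.1). Of 5044 single genes with 1 start in the files, 54.3% of 4901 marked in parental cells and 34.6% of 4126 marked in knockout cells had peaks on both sides. The differences were 23.3 points (20.2 to 26.2) and 28.4 points (24.8 to 31.8).

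By the same peak centres, the knockout list lacked either side of divergent pairs about equally often. At single genes it lacked the upstream side more often. A peak that shifts, splits or is centred farther out can change these counts without loss of the mark. Of the 734 pairs with both sides marked in parental cells, 475 (64.7%) kept both in the knockout list, 110 and 103 kept 1 or the other, and 46 (6.27%) kept neither. Of 2662 single genes, 1126 (42.3%) kept both, 1027 (38.6%) kept the downstream side alone, 200 (7.51%) the upstream side alone and 309 (11.6%) neither. The share that kept both differed by 22.4 points (18.4 to 26.3). Per side, 79.2% of marked plus-strand flanks and 79.1% of minus-strand flanks had a knockout peak, against 77.3% of downstream and 49.5% of upstream flanks of single genes. The parental median summed widths of these flanks were 734, 763, 787 and 390 bp, in this order. The part of width in the differences was not tested. Of 212 pairs with 1 marked side in parental cells, 75 had peaks on both sides in the knockout list.

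The coverage of called peaks around closely spaced divergent starts (gap of at most 300 bp, 741 pairs) had 2 shoulders of like height. In parental cells 77.6% of pairs were under a peak 500 bp left of the midpoint, 79.6% were 440 bp right of it and 9.45% were at the midpoint. In knockout cells the shoulders reached 45.1% at 600 bp left and 47.2% at 500 bp right, and the midpoint 2.83%. The 5044 single genes had 1 high and 1 low shoulder: 76.5% at 500 bp downstream and 42.8% at 320 bp upstream in parental cells, 43.8% at 580 bp and 18.5% at 400 bp in knockout cells. In both kinds of promoter the maxima lay farther out in the knockout list.

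**Figure D3:**
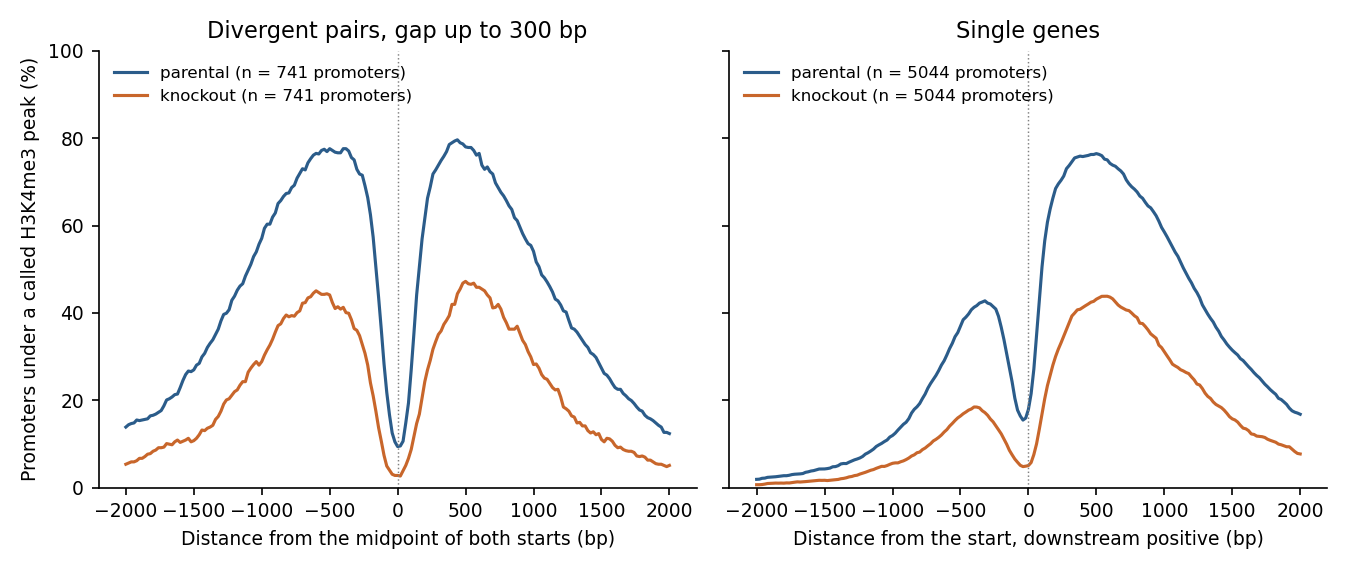
Share of promoters under a called H3K4me3 peak (y axis, percent) by distance in bp from the midpoint between divergent starts (left, 741 pairs) or from the start of single genes (right, 5044 genes), for parental (blue) and knockout (orange) lists. Divergent pairs show shoulders of 77.6% and 79.6% around a gap of 9.45% in parental cells, and single genes a lower upstream shoulder of 42.8%.

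Where 1 parental peak met 1 knockout peak on a divergent flank (637 cases), both edges of the knockout peak usually lay inside the parental ones. The inner edge, nearer the start, had a median of 87 bp from the start in parental and 230 bp in knockout cells, and the outer edge 784 and 639 bp. The inner edge was farther from the start in 81.5% of cases, with a median shift of 93 bp, and the outer edge was nearer in 72.1%, with a median shift of -109 bp. Downstream single-gene peaks (2895 cases) shifted by 99 and -115 bp. The shifts at divergent flanks were thus of the same size as at single genes.

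Peaks that share symbols were joined into loci, which gave 1929 multi-gene loci: 1797 with 2 symbols, 107 with 3, 17 with 4 and 8 with 5 or more. A multi-gene peak was present in both lists at 1556 loci, in the parental list alone at 299 and in the knockout list alone at 74. Of the 1855 loci with a parental multi-gene peak, 83.9% (82.1 to 85.5) had one in the knockout list. With a distance limit of 500 bp this was 568 of 1065 loci, 53.3%. These states use peak centres, so a peak that shifts or splits can change the state without loss of the mark. Of the 299, 173 had no knockout peak centre within 1 kb, 94 had one near some of the symbols and 32 had separate peaks near each symbol, and at 47 a knockout peak overlapped a parental multi-gene peak. Of the 74, 63 had a knockout multi-gene peak overlapped in the parental list, which leaves 11 without.

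Counting any peak within 1 kb, 1744 of 1917 multi-gene loci with a parental peak (91.0%) also had a knockout peak, against 6276 of 7724 single-gene loci (81.3%) and 83.2% of all loci. A multi-gene locus holds more starts by definition, and the part of this in the difference was not tested. The summed width was lower in the knockout list at most multi-gene loci, and went from a median of 1501 to 773 bp, and from 1010 to 536 bp at single-gene loci. The median log2 ratio of knockout to parental width was -1.02 (quartiles -1.54 and -0.56) and -0.97, a difference of -0.05 (-0.09 to 0.01). Width was lower by 50% or more at 885 multi-gene loci (50.7%), where 49% of all loci were. It was larger in the knockout list at 114 (6.54%), where 9.7% of all loci and 10.6% of single-gene loci were wider.

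**Figure D4:**
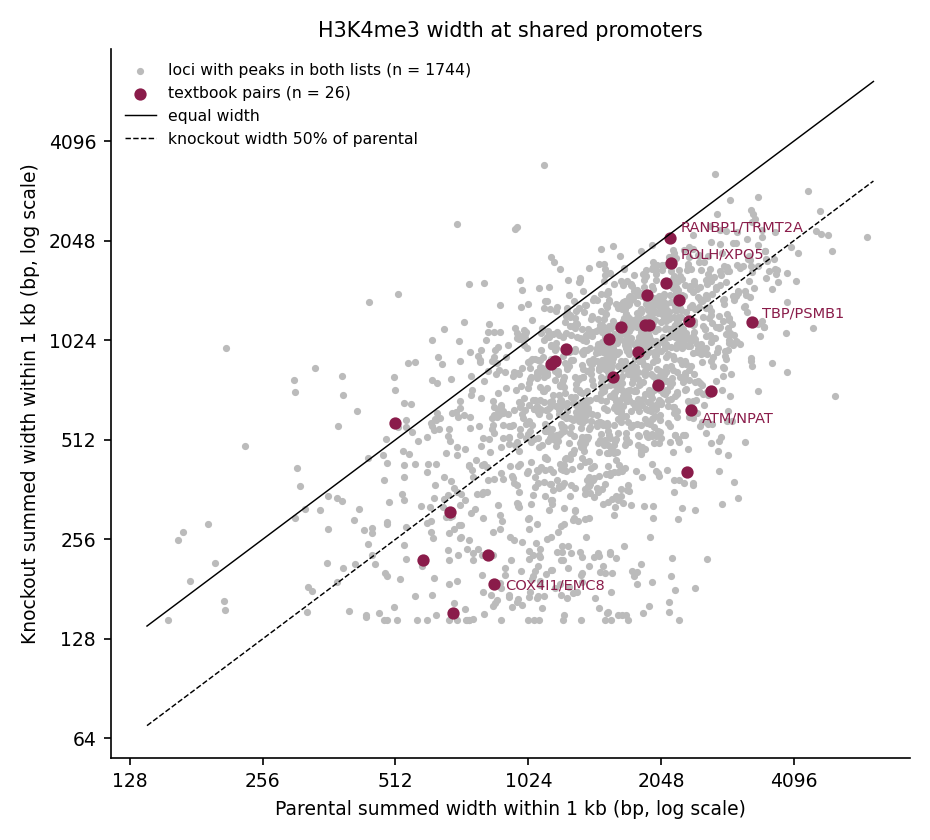
Summed H3K4me3 width within 1 kb in the parental (x axis) and knockout list (y axis), both in bp on log2 scales, for 1744 multi-gene loci with peaks in both lists (grey) and the 26 textbook pairs among them (red); lines mark equal width and 50% of it. COX4I1/EMC8, 858 to 188 bp, lies far below the line of equal width, and RANBP1/TRMT2A, 2147 to 2091 bp, lies near it.

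Pairs known from textbooks and reviews as bidirectional were looked up by name. Of 30 listed, 27 were multi-gene loci here, and COL4A1/COL4A2, BRCA2/ZAR1L and UNG/ALKBH2 were not. A multi-gene peak was in both lists at 23, in the parental list alone at 3, among them APEX1/OSGEP, and in the knockout list alone at HSPD1/HSPE1. Of the 26 with width in both lists, 25 were narrower in the knockout list and 1 was wider, where 6.54% of all multi-gene loci were wider, with a median log2 ratio of -0.85 that lies near the -1.02 of all multi-gene loci.

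Enzyme genes among these pairs had peaks on both flanks in both lists. PPAT and PAICS encode enzymes of purine synthesis. Of their 3 parental peaks, chr4:57300343-57301643 and chr4:57302507-57302924 lay on either side of the 112 bp between starts. The knockout list had chr4:57300667-57301298, at both genes, and chr4:57302495-57303269, whose centre was within 1 kb of PAICS alone. Summed width, over all 3 parental peaks, went from 1906 to 1407 bp. SIRT3, a mitochondrial deacetylase, and PSMD13, a proteasome subunit, had a parental peak of 603 bp on the SIRT3 side and one of 1640 bp that covered the PSMD13 start. Within the knockout list the latter span held 3 peaks of 264, 146 and 506 bp, and the former a peak of 436 bp. TK1, the thymidine kinase of S phase, and AFMID likewise had parental peaks of 467 and 1454 bp and knockout peaks of 215, 220 and 706 bp.

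DNA repair pairs differed in how much of the width was present in the knockout list. ATM, the kinase that signals double-strand breaks, and NPAT went from 2397 to 632 bp (-1.92). BRCA1/NBR2 went from 1174 to 883 bp (-0.41), XPC/LSM3 from 1879 to 1136 bp (-0.73) and POLH/XPO5 from 2151 to 1756 bp (-0.29). The oxidative damage repair gene NTHL1 and the tumour suppressor TSC2 had 1 parental peak, chr16:2096900-2098971, over both starts, and 3 knockout peaks of 231, 330 and 214 bp that left the starts uncovered.

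The pairs with a multi-gene peak in 1 list differed in what remained. APEX1/OSGEP had 3 parental peaks that summed to 1986 bp and no knockout centre within 1 kb, yet knockout peaks of 592 and 924 bp overlapped the outer 2 from farther out. At the chaperonin pair HSPD1/HSPE1 1 parental peak of 1153 bp was near HSPD1 alone, and knockout peaks of 225 and 642 bp were near both genes. Among pairs with a multi-gene peak in both lists, RANBP1/TRMT2A had sums of 2147 and 2091 bp, and COX4I1/EMC8, with a cytochrome c oxidase subunit, went from 858 to 188 bp.

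Gene groups are given by the state of their multi-gene loci, beside 1556 of 1929 in both lists over all. They were chosen with earlier results of these data known. DNA repair genes lay at 49 loci, of which 40 had a multi-gene peak in both lists, 7 in the parental list alone and 2 in the knockout list alone (BARD1/LOC101928103 and ORMDL1/PMS1), with a median log2 width ratio of -1.18. The summed width was 0 in the knockout list at 5 of the 7, among them AIMP2/PMS2 (1138 bp in parental cells), TMEM167A/XRCC4 (1142 bp) and COL4A3BP/POLK (754 bp). Over all multi-gene loci it was 0 at 173 of the 299 in the parental list alone. It was larger in the knockout list at 2 of the 44 loci of the group with width in both lists, among them FANCM/FKBP3, 1593 to 1979 bp. Over all multi-gene loci 6.54% were wider.

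Replication and cell cycle genes lay at 37 loci, with 34 in both lists, 3 in the parental list alone and a median log2 ratio of -0.81. CDK6, a G1 cyclin-dependent kinase, and LOC101927497 had the largest parental sum of the group, 4032 bp, against 1952 bp. BRD8/KIF20A went from 541 bp to none and CDC25C/FAM53C from 1667 to 411 bp, with no knockout peak near both. The sum was larger in the knockout list at 5 of the 36 loci of the group with width in both lists. Over all multi-gene loci 6.54% were wider. Among the 5 were NCAPG/DCAF16 (546 to 874 bp), ORC1/PRPF38A (1024 to 1319 bp) and CDK2/PMEL (1255 to 1283 bp).

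Mitochondrial protein genes lay at 80 loci, with 73 in both lists, 6 in the parental list alone and 1 in the knockout list alone, and a median of -1.06. ATP5A1, an ATP synthase subunit, with HAUS1 went from 2988 to 1063 bp, and MRPS30, a mitochondrial ribosome protein, with LOC100506674 from 1096 bp to none. The lowest ratio of the group was at ATP5F1/WDR77, 2249 to 146 bp (log2 ratio -3.95). Aminoacyl-tRNA synthetase genes lay at 13 loci, 12 of them in both lists and 1 (FARS2/LYRM4) in the knockout list alone, with a median of -0.86 and none wider in the knockout list, where 6.54% of all multi-gene loci were wider. Proteasome genes lay at 13 loci, with 11 in both lists and a median of -0.78. PSMB1/TBP went from 3282 to 1166 bp and PSMB9/TAP1, genes of antigen processing, from 2369 to 1167 bp.

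Core histone genes sit in clusters as divergent pairs of H2A and H2B genes, and 29 of them fell into 13 loci. Of these, 8 had a multi-gene peak in both lists and 5 in the parental list alone, with a median log2 ratio of -1.12. HIST1H2AM/HIST1H2BO, whose intergenic stretch above holds CCAAT boxes on both strands, had parental peaks of 379 and 682 bp and no knockout peak within 1 kb. HIST1H2AI/HIST1H2BL/HIST1H3H went from 2621 to 698 bp and HIST1H2BB/HIST1H3C from 1159 to 207 bp. Histone genes are near-identical copies, and the sources used here do not say how reads with several matches were placed.

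Zinc finger genes named ZNF or ZSCAN lay at 54 loci, 46 of them in both lists, with a median of -0.72, and ZNF652/LOC102724596 went from 1573 to 146 bp. Genes with an antisense RNA made up 347 loci (280 in both lists, 61 parental alone, 6 knockout alone, median -1.04). Loci with miRNA or snoRNA names numbered 206 (142, 46 and 18, median -1.03), and those with a readthrough transcript 84 (63, 20 and 1, median -0.97). A miRNA, snoRNA or readthrough name often lies within or shares the start of its host gene, so these loci can hold 1 promoter under several names.

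Only 3 of the 52 myeloid genes listed lay at multi-gene loci, each with an antisense partner. CEBPB, a transcription factor of granulocytes and monocytes, and CEBPB-AS1 had 1 parental peak of 1600 bp over both starts (chr20:48807064-48808663). The knockout list had 205 bp near CEBPB, within that span, and 289 bp near CEBPB-AS1, outside it. ITGB2, the beta subunit of leukocyte integrins, and ITGB2-AS1 went from 1302 to 298 bp, and CEBPA/CEBPA-AS1 from 1119 to 453 bp. The median log2 ratio of these 3 was -1.70, against -1.02 over all multi-gene loci, and 3 loci are too few to set them apart.

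At ASB3/ERLEC1 and NHLRC3/PROSER1 1 wide parental peak over the starts stood against 2 narrower knockout peaks on either side of them. The single peak at ASB3/ERLEC1, chr2:54012547-54015932, spanned 3386 bp, and knockout peaks of 563 and 156 bp lay within it. NHLRC3/PROSER1, whose 221-base stretch above has no match to the motifs searched, had 1 parental peak of 3266 bp (chr13:39610602-39613867). Its knockout peaks of 437 bp (chr13:39611374-39611810) and 451 bp (chr13:39612598-39613048) lay beside PROSER1 and NHLRC3 and left both starts uncovered. SNORD50A/SNORD50B went from 3252 to 1387 bp and HCG17/HCG18/TRIM39 from 3500 to 1124 bp.

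Among parental peaks without a knockout overlap, the widest was at PRKAR2A, a regulatory subunit of protein kinase A, and PRKAR2A-AS1: 1259 bp at chr3:48883988-48885246, the one peak of that locus, with none in the knockout list. The next, 1177 bp at chr3:38178887-38180063, lay between ACAA1 and MYD88, the adaptor of Toll-like receptors. There the locus went from 3 peaks of 820 to 1179 bp to knockout peaks of 225 and 278 bp near ACAA1 alone, and no knockout peak was near MYD88. GALNT6/SLC4A8 went from 1479 to 228 bp and LRRC45/STRA13 from 2333 to 728 bp.

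Knockout multi-gene peaks without a parental overlap were narrow. The widest had 508 bp, at MIR663A/MIR663AHG on chromosome 20, where the parental list had no peak within 1 kb. The next were 433 bp at ATP5C1/KIN, 426 bp at AK6/RAD17/TAF9 and 425 bp at PI4KA/SNAP29. At PI4KA, a lipid kinase, the knockout peak chr22:21212562-21212986 lay next to a parental peak of 569 bp, chr22:21211985-21212553. At AK6/RAD17/TAF9 3 parental peaks summed to 1549 bp and none of them was overlapped.

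The largest gains of summed width included peaks on a flank where no parental peak was centred within 1 kb. All 233 knockout multi-gene peaks over 700 bp overlapped a parental peak, those of 1535 bp below included. These gains thus do not show a flank without the mark in parental cells. SMG5, of nonsense-mediated decay, and TMEM79 had 1 parental peak of 704 bp on the TMEM79 side. The knockout list had 765 bp there and another 1535 bp on the SMG5 side (chr1:156250938-156252472), so the sum went from 704 to 2300 bp. POLR1C/YIPF3 had 967 bp centred on the YIPF3 side in parental cells, and the knockout list had a peak of 1535 bp on the POLR1C side (967 to 2259 bp). At KANSL1/KANSL1-AS1 the gain of 2352 bp lay mostly in a peak of 2446 bp near KANSL1 alone, which also overlapped a parental peak. The multi-gene peak itself went from 515 to 456 bp. The largest difference downward was at BZRAP1 with MIR142, a miRNA of blood cells, where 11 parental peaks summed to 5061 bp and 4 knockout peaks to 694 bp.

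Loci with many symbols were mostly hosts of small RNAs. The GAS5 locus, with 13 symbols, went from 4690 to 2516 bp, the MIR17 cluster with 6 from 2811 to 1873 bp, and the RPS2 locus with 6 from 3396 to 1714 bp.

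The share of parental loci with a knockout multi-gene peak varied between chromosomes. It was 48.6% (33.4 to 64.1) for 37 loci on X and 61.9% (46.8 to 75) for 42 loci at 50 to 140 Mb of chromosome 5, against 83.9% over all. Chromosome 4 had 98.6% (92.3 to 99.7) of 70. The chromosome 5 loci also had a median log2 width ratio of -1.37, and those on chromosomes 18, 13 and 21 had -0.52, -0.62 and -0.62. X and the chromosome 5 span were looked at with earlier results known. No share of single-gene loci by chromosome is given here, so these values cannot be read as particular to shared promoters.

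H3K27me3, the mark of Polycomb repression and the substrate of JMJD3, was rare at these promoters. It overlapped 9 parental multi-gene peaks, 0.254% (0.134 to 0.482), where 0.335% of all parental H3K4me3 peaks were overlapped, and 78 single-gene peaks, 0.484%. In the knockout lists it overlapped 2 multi-gene peaks, 0.0662%, where 0.221% of all were, and 41 single-gene peaks, 0.327%. The 9 parental peaks lay at 5 loci: TMEM56/TMEM56-RWDD3, FRMD6/FRMD6-AS1, DSEL/LOC643542, CDK6/LOC101927497 and HEY1/LOC101927067. The 2 knockout peaks lay at FRMD6/FRMD6-AS1, which had both marks in both genotypes, and LINC00637/PPP1R13B. At CDK6 3 neighbouring parental peaks of 864, 509 and 319 bp had the mark, and none of its knockout peaks did.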

How the data were processed

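ChIP-seq peak lists of 4 libraries (H3K4me3 and H3K27me3, each in parental and knockout HL-60 cells) were analysed, and 2 inputs were not. The tools in the submitters' processing notes are BWA 0.7.10 with SAMtools and MACS2 2.1.1, on build hg19. Settings, read totals and the use of inputs are not given in the sources used here, so precision is limited by an unknown depth. Per the file headers, each line of a deposited list joins a peak to a RefSeq transcript and gene symbol, with a score and a distance. By the values, the deposited distance equals peak centre minus start site and stays under 20 kb. The deposited score is a function of the distance alone and was not used as peak strength. Starts were read as counted from 0, which no source states.

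Lines with the same chromosome, start and end were taken as 1 peak, and overlaps (at least 1 bp) were found with bedtools 2.31.1. Symbols within 1 kb of the peak centre defined members. Symbols joined by such peaks, in either list, form a locus, whose summed width adds all peaks within 1 kb of any of its symbols. Strands came from the RefSeq GRCh38.p14 promoter table, matched by accession, symbol or older name, which gave a strand for 79.3% of the 11988 symbols within 1 kb of a peak. Sides of single-gene peaks are given where the strand matched. Shares have Wilson 95% intervals, differences of shares Newcombe intervals, and differences of medians intervals from order statistics. The scripts were tested on simulated data and ran with Python 3.11.15, pandas 2.3.3, numpy 2.4.6, scipy 1.17.1 and matplotlib 3.10.9.

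No test across replicates exists. The members, gene lists and 30 textbook pairs were chosen with earlier results of these data known. Loci were named by rule: the 6 widest parental peaks with a counterpart, the 6 widest without one in each list, the 4 largest falls and rises of width, the 3 with most symbols, up to 4 per gene group and every textbook pair found. Some loci that the rule names are not reported here. Other loci named were chosen after their values were seen. Alternatives changed the distance limit, the overlap, a minimum width, the list length, the transcripts and the comparison peaks.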

Additional observations from a re-analysis of the deposited data

How the results depend on the processing

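Of 82 alternative values, 45 kept their direction and size, 33 moved and 4 changed sign. The cause of each shift was not tested unless the setting itself removes peaks. Distance limits of 500, 2000 and 5000 bp gave 1287, 5890 and 8414 parental and 1051, 5061 and 6859 knockout multi-gene peaks, by construction, and 53.3%, 89.8% and 89.1% of parental loci with a knockout multi-gene peak. At 500 bp the parental overlap difference was -0.20 points and the width differences -13 bp (parental) and -14 bp (knockout). At 5000 bp the parental width difference was 58 bp. With 50% of a peak covered the overlap differences were 3.08 (parental) and 5.25 points (knockout), and with 50% reciprocal overlap 3.84 and 1.31. Peaks of at least 300 bp gave a parental width difference of 42 bp, 1397 knockout multi-gene peaks, 60.9% of loci and a difference of log2 ratios of -0.17. Lists of equal length gave a knockout overlap difference of 4.23 points and 86.4% of loci. Coding transcripts (NM_) alone gave 2026 parental and 1797 knockout multi-gene peaks, parental differences of 7.98 points and 118 bp, and 88.2% of loci. With the widest peak of each set of symbols the parental differences were 3.34 points and 37 bp. Reweighting to width classes gave 2.25 points in the parental list. Alternatives chosen after seeing the data were reweighting to distance classes (8.41 points), to width and distance together (3.15 points), and divergent flanks against downstream single-gene peaks, which gave 0.85 points and 2 bp in the parental and -0.047 points and 1 bp in the knockout list. No paired analysis was possible because each genotype and mark has 1 library. The unknown depth limits every comparison between the lists.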
